A study of Homo sapiens with 44 samples.

Results

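The 32 genes described here cover the use of glucose by way of pyruvate and lactate. They comprise 19 glycolytic enzymes, 3 glucose transporters, 2 lactate transporters, 4 pyruvate dehydrogenase kinases and 4 PFKFB enzymes. They were chosen by symbol, and GENCODE release 29 gave an identifier for 32 of 32 among the 60499 genes of the count tables. All 32 were also among the 22955 genes with enough reads to be tested. The markers given with the group were HK2, PDK4 and ENO3, and each of these was detected, PDK4 at a low level.

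The study followed the human embryonic stem cell line H1 through a cardiac differentiation on recombinant laminins, with stranded total RNA libraries sequenced from 44 wells in 12 groups. Pluripotent cells (3 wells) were kept on LN-521, and every later group grew on LN-521 with LN-221. Confluent cells at day 0 (3 wells) were in Nutristem medium. Cells at days 1 and 3 (3 wells each) were in RPMI 1640 with insulin-free B27 and CHIR99021, an inhibitor of the kinase GSK3. At day 5 (5 wells) the same basal medium and supplement held IWP2, which blocks the production of Wnt ligands and was first added at day 3. Days 7 and 9 (5 wells each) had the insulin-free supplement alone. From day 11 (5 wells) through days 14, 20, 30 and 90 (3 wells each) the cells received CTS B-27 Supplement. The series text speaks of triplicates at day 11, but 5 wells carry that label, and all 5 were used. All wells come from 1 cell line, and the labels number biological replicates without saying which wells were separate differentiations, so the p-values measure the spread between these wells, which may be technical. Medium, added inhibitor and day changed together, so their parts in a difference between days cannot be told apart.

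Glycolysis splits glucose into pyruvate in the cytosol with a small gain of ATP. Pyruvate is then either reduced to lactate, which leaves through monocarboxylate transporters, or oxidised in mitochondria after passing pyruvate dehydrogenase, the enzyme that the pyruvate dehydrogenase kinases switch off. Several steps are encoded by more than 1 gene, and adult striated muscle is known for its own forms, such as the enolase ENO3, the phosphoglycerate mutase PGAM2 and the insulin-responsive transporter SLC2A4. Pluripotent cells are known for a high glycolytic rate and the adult heart for oxidation of fatty acids. Transcription of many glycolytic genes is also known to rise in low oxygen through hypoxia-inducible factors.

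Libraries held 6937136 to 33498022 estimated counts (median 26010763), with RNA integrity numbers of 7.4 to 10.0 over 5 sequencing lanes. The 4 shallowest libraries, with 6937136 to 14148880 counts, were all from days 14, 20 and 30. Levels are given as CPM, a count relative to the library total after TMM scaling between libraries, as mean ± SD over wells, and compare the same gene between samples. Genes are compared with each other only by TPM, the transcript share that accounts for gene length, within a library. A gene was called where edgeR's quasi-likelihood test gave a Benjamini-Hochberg adjusted p under 0.05 over the 22955 genes with a log2 change of at least 1 in either direction. Another annotated gene overlaps 26 of the 32 genes, and the sources used here do not say whether the counting used strand. PFN1, on the opposite strand to ENO3, had 633 ± 14.8 CPM at day 0, 248 ± 40.0 at day 9 and then 206 ± 35.8 at day 90. YBX2, opposite SLC2A4, had 25.8 ± 1.63 CPM, then 7.26 ± 1.51 and 12.6 ± 10.8 on the same days, higher at day 90 than at day 9 as SLC2A4 was. DBNL, which overlaps PGAM2, had 41.7 ± 3.68 CPM, 58.6 ± 7.00 and 88.9 ± 6.61, higher on each later day as PGAM2 was. CSNK1D, which overlaps SLC16A3, had 53.0 ± 3.33 CPM, 66.3 ± 1.35 and 51.6 ± 7.01, and UCN2, which overlaps PFKFB4, had 0.281 ± 0.149 CPM, 0.292 ± 0.157 and 0.529 ± 0.567. The part of the overlapping genes in the levels given here was not tested. Muscle and embryonic splice forms of PKM share 1 gene-level count and were not separated.

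Several wells stood apart by their cell type markers. Cardiomyocyte markers (5 genes, TNNT2, MYH6, MYL7, ACTN2 and TNNI1) summed to 33.3 to 41.3 CPM at day 0, 6588 to 15052 at day 9 and 12447 to 16907 at day 90. At day 11 the sum was 7689.9 and 5053 CPM in replicates 1 and 2, against 19581, 19474 and 18554 in replicates 5, 6 and 7. Endoderm and liver markers (6 genes) went the other way in these wells, at 5841 and 10400.2 CPM against 367, 387 and 297 in the others. Their sum was 5.96 to 13.7 CPM at day 0, 747 to 7652 at day 9 and 10.4 to 212 at day 90. Day 9 replicate 2 likewise had the lowest cardiomyocyte sum of its group (6588 CPM) and the highest endoderm and liver sum (7652 CPM). Day 90 replicate 4 had a smooth muscle sum of 95.3 CPM, against 1022 and 839 in replicates 2 and 5, and a fibroblast and stroma sum of 2136 CPM against 12644 and 6452. Endothelial markers (4 genes) summed to 246 to 437 CPM at day 9 and 26.9 to 155 at day 90, and neural markers (3 genes) to 35.4 to 52.3 and 16.6 to 36.8. Counts that rest on these wells are given with and without them. Pluripotency markers (4 genes) summed to a median of 4828 CPM in pluripotent cells, 80.5 at day 9 and 10.5 at day 90. In bulk RNA, fewer cells of a type and less RNA per cell cannot be told apart.

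Over the whole course, 31 of the 32 genes differed between the 12 groups, against 87.1% of all genes tested. The exception was PFKFB1, the liver form of its family (adjusted p = 0.132 in edgeR's quasi-likelihood test), which had 3 counts or fewer in 19 of 44 libraries. The summed level of the 19 enzymes traced a course of falls and recoveries. It took 1.77% ± 0.0412 of scaled counts in pluripotent cells and 2.01% ± 0.0669 at day 0, 1.16% ± 0.0228 at day 1 and 1.72% ± 0.116 at day 3. It was lowest at day 5, at 0.823% ± 0.126 (n = 5), and reached 1.2% ± 0.164 at day 9 and 2.38% ± 0.247 at day 90 (n = 3). The 3 wells of day 90 (2.10% to 2.58%) lay above all 5 wells of day 9 (0.995% to 1.37%), and the 5 wells of day 5 (0.668% to 0.966%) lay below the 3 of day 3 (1.59% to 1.81%). On scaled counts the day 90 wells also lay above the pluripotent wells (1.72% to 1.80%) and the day 0 wells (1.94% to 2.07%), but this depended on the scale. As a percent of TPM the enzymes took 0.845% ± 0.0367 at day 0, 0.411% ± 0.14 at day 9 (n = 5) and 0.546% ± 0.132 at day 90. There the day 90 wells lay below all day 0 wells and overlapped those of pluripotent culture and day 9, and the lowest group mean was at day 7. Protein-coding genes held only 15.4% to 41.9% of TPM, depending on the library, and a percent of all TPM moves with that share. As a percent of protein-coding TPM the enzymes took 2.79% ± 0.0648 at day 0, 1.76% ± 0.141 at day 9 (n = 5) and 3.06% ± 0.333 at day 90, with day 90 above all of day 9 and overlapping day 0. Day 5 was below all day 3 wells on these scales too. On scaled counts 14 of the 32 genes had their highest group mean at day 90 and 13 their lowest at day 5, of which 11 and 10 were enzymes. On TPM these were 3 and 7 of the 32, and on protein-coding TPM 11 and 13.

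**Figure D1:**
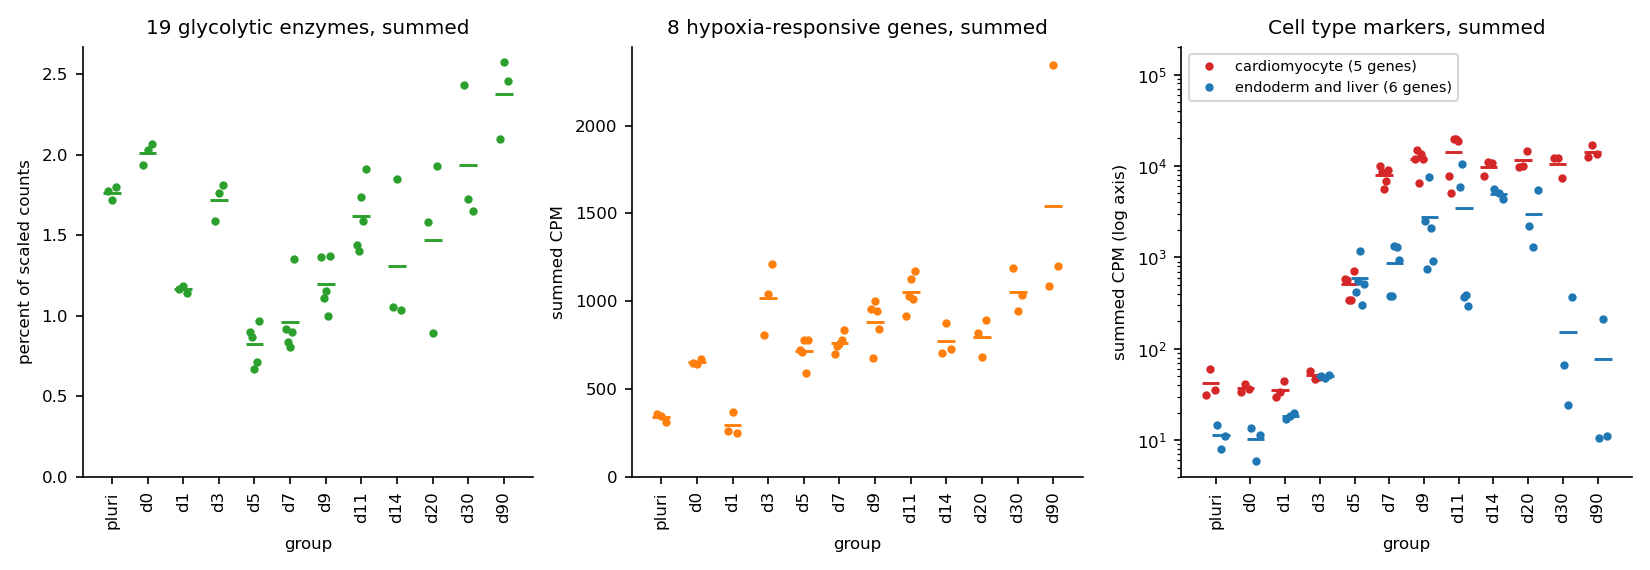
Summed levels in each well (dots) with group means (bars) for the 19 glycolytic enzymes (percent of scaled counts), 8 hypoxia-responsive genes (CPM) and the cardiomyocyte and endoderm and liver marker lists (CPM, log axis), over the 12 groups. On scaled counts the enzyme sum is lowest at day 5 and highest at day 90, and day 11 splits into 2 wells with low and 3 with high cardiomyocyte sums.

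**Figure D2:**
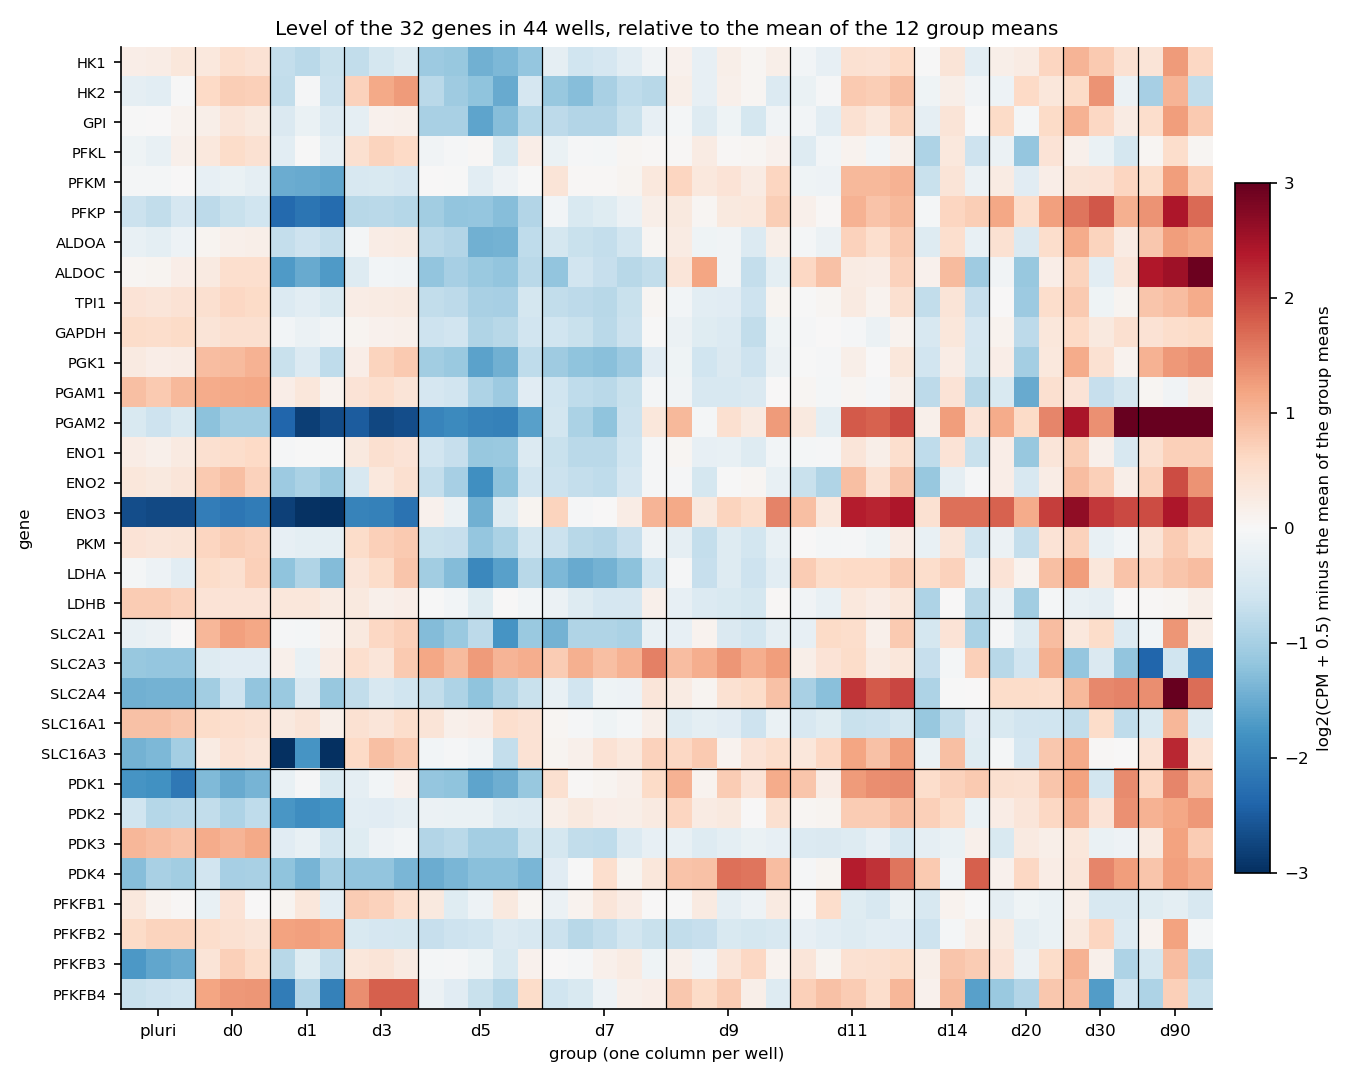
Level of each of the 32 genes (rows) in each of the 44 wells (columns, grouped by day), as log2(CPM + 0.5) minus the mean of the gene's 12 group means, with colours ending at 3 in either direction. Lines separate the gene classes and the groups. LDHA, PGK1 and PFKFB4 are low at day 1 and again at day 5, while ENO3 is low until day 3, PGAM2 until day 5, and both are highest at days 30 and 90.

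Between pluripotent culture and confluent cells at day 0, 4 of the 32 genes rose and none fell. Background for this comparison was 2.73% of all genes called higher and 0.183% called lower, or 2.91% called either way. The 4 were SLC2A1, the widespread glucose transporter GLUT1, SLC16A3, the lactate exporter MCT4, and PFKFB3 and PFKFB4, whose product activates phosphofructokinase. None of the 19 enzymes was called, their log2 changes running from -0.69 to 0.89. The largest log2 change was in PFKFB3 (chr10:6144934-6254644, plus strand), at 17.6, 19.9 and 20.9 CPM in the pluripotent wells and 77.8, 97.8 and 86.7 CPM at day 0. The groups did not overlap, with a log2 change of 2.16 ± 0.33 (SE, adjusted p = 7.57e-05). PFKFB4 (chr3:48517684-48562015, minus strand) had 28.0, 28.9 and 29.7 CPM in pluripotent wells and 103, 111 and 113 at day 0, a log2 change of 1.91 ± 0.53 (adjusted p = 0.0266). SLC16A3 (chr17:82228397-82261129, plus strand) had 41.2, 43.5 and 54.8 CPM before and 132, 151 and 143 after, a log2 change of 1.61 ± 0.44 (adjusted p = 0.0236). Every day 0 well was above every pluripotent well for both genes. The calls for SLC2A1, SLC16A3 and PFKFB4 were lost without any 1 of the 6 wells, at adjusted p up to 0.124, 0.131 and 0.125, with log2 changes from 1.21 to 1.96. Only PFKFB3 was called in all 6 such fits. Laminin and confluence changed together here and cannot be told apart.

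The first day with CHIR99021 in RPMI 1640 brought a broad fall. Of the 32 genes 15 fell and 1 rose, against 9.66% of all genes called lower and 3.86% called higher (13.5% either way). The median log2 change of the 32 was -1.01 against -0.03 over all genes tested. Among the 19 enzymes 9 fell, all 19 had a negative log2 change, and 5 of the other 10 passed the adjusted p but not the fold. The 9 were the hexokinases HK1 and HK2, the phosphofructokinases PFKM and PFKP, ALDOC, PGK1, PGAM2, ENO2 and LDHA. SLC2A1, SLC16A3, PDK2, PDK3, PFKFB3 and PFKFB4 fell as well. The 1 gene that rose was PDK1, a pyruvate dehydrogenase kinase.

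The steepest fall was that of SLC16A3, the exporter of lactate from highly glycolytic cells. Its wells read 132, 151 and 143 CPM at day 0 and 8.32, 32.1 and 7.81 CPM at day 1. Although day 1 replicate 2 was the highest of its group, it was still far below every day 0 well. SLC16A3 fell by 3.14 on the log2 scale (SE 0.47, adjusted p = 3.29e-06), an 8.83-fold difference. PFKFB4 went from 103, 111 and 113 CPM to 10.1, 24.3 and 10.6 CPM, with the same replicate 2 highest, and fell by 2.86 on the log2 scale (SE 0.55, adjusted p = 1.88e-04). ALDOC (chr17:28573115-28577264, minus strand), the aldolase best known from brain, went from 100.4, 119 and 118 CPM to 25.6, 29.1 and 25.3 and fell by 2.08 (SE 0.36, adjusted p = 4.80e-05). LDHA (chr11:18394388-18408425, plus strand), the lactate dehydrogenase subunit that favours lactate formation, had 1371, 1295 and 1540.4 CPM at day 0 and 404, 501 and 379 at day 1. Its partner LDHB, the subunit of heart muscle, was not called, with 1006, 1019 and 1017 CPM before and 957, 962 and 897 after (log2 change -0.11 ± 0.21). PDK1 (chr2:172555373-172608669, plus strand) ran against the rest, with 127, 112 and 121 CPM at day 0 and 272, 313 and 232 at day 1, a log2 change of 1.18 ± 0.31 (adjusted p = 0.00432).

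Some of these calls rested on small margins. HK2 was no longer called without day 0 replicate 2 or 3 or day 1 replicate 1 or 3, with log2 changes of -1.06 to -0.95 in those fits. The PDK2 call was lost without day 0 replicate 1 or 3 or day 1 replicate 2, at -0.98 to -0.97. That of SLC2A1 was lost without day 0 replicate 2 or 3 or any day 1 well, at adjusted p up to 0.0731 and log2 changes of -1.13 to -1.03.

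By day 3, after a further 2 days in the same medium and inhibitor, 10 of the 32 genes had risen from day 1 and 1 had fallen. The background was 11% called higher and 6.8% called lower, or 17.8% either way. The median log2 change of the 32 was 0.71 against 0.07 over all genes. The 10 were 7 enzymes (HK2, PFKM, PFKP, ALDOC, PGK1, ENO2 and LDHA) with SLC16A3, PDK2 and PFKFB4. PFKFB2, the heart form of its family, was the 1 that fell. This comparison shares the day 1 wells with the previous one, so a low value in those wells enters both.

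SLC16A3 rose from 8.32, 32.1 and 7.81 CPM to 168, 206 and 193 CPM, a log2 change of 3.56 ± 0.47 (adjusted p = 2.55e-07). PFKFB4 went from 10.1, 24.3 and 10.6 CPM to 119, 156 and 158, a log2 change of 3.26 ± 0.56 (adjusted p = 2.11e-05). LDHA reached 1192, 1357 and 1669.8 CPM, a log2 change of 1.72 ± 0.26 (adjusted p = 2.41e-06). For all 3 genes no day 3 well was as low as any day 1 well. The day 3 wells of LDHA overlapped its day 0 wells, whereas those of SLC16A3 and PFKFB4 were all above them. Day 3 replicate 1 had the lowest LDHA, PGK1, ENO2 and PFKFB4 of its group. Only the ENO2 call was lost on leaving out 1 well, day 3 replicate 3, where the log2 change was 1.02 (adjusted p = 0.0611). Over these days the share of LDHA in lactate dehydrogenase TPM went from 51.4% ± 2.48 at day 0 to 25.7% ± 2.11 at day 1 and 54.1% ± 4.64 at day 3.

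**Figure D3:**
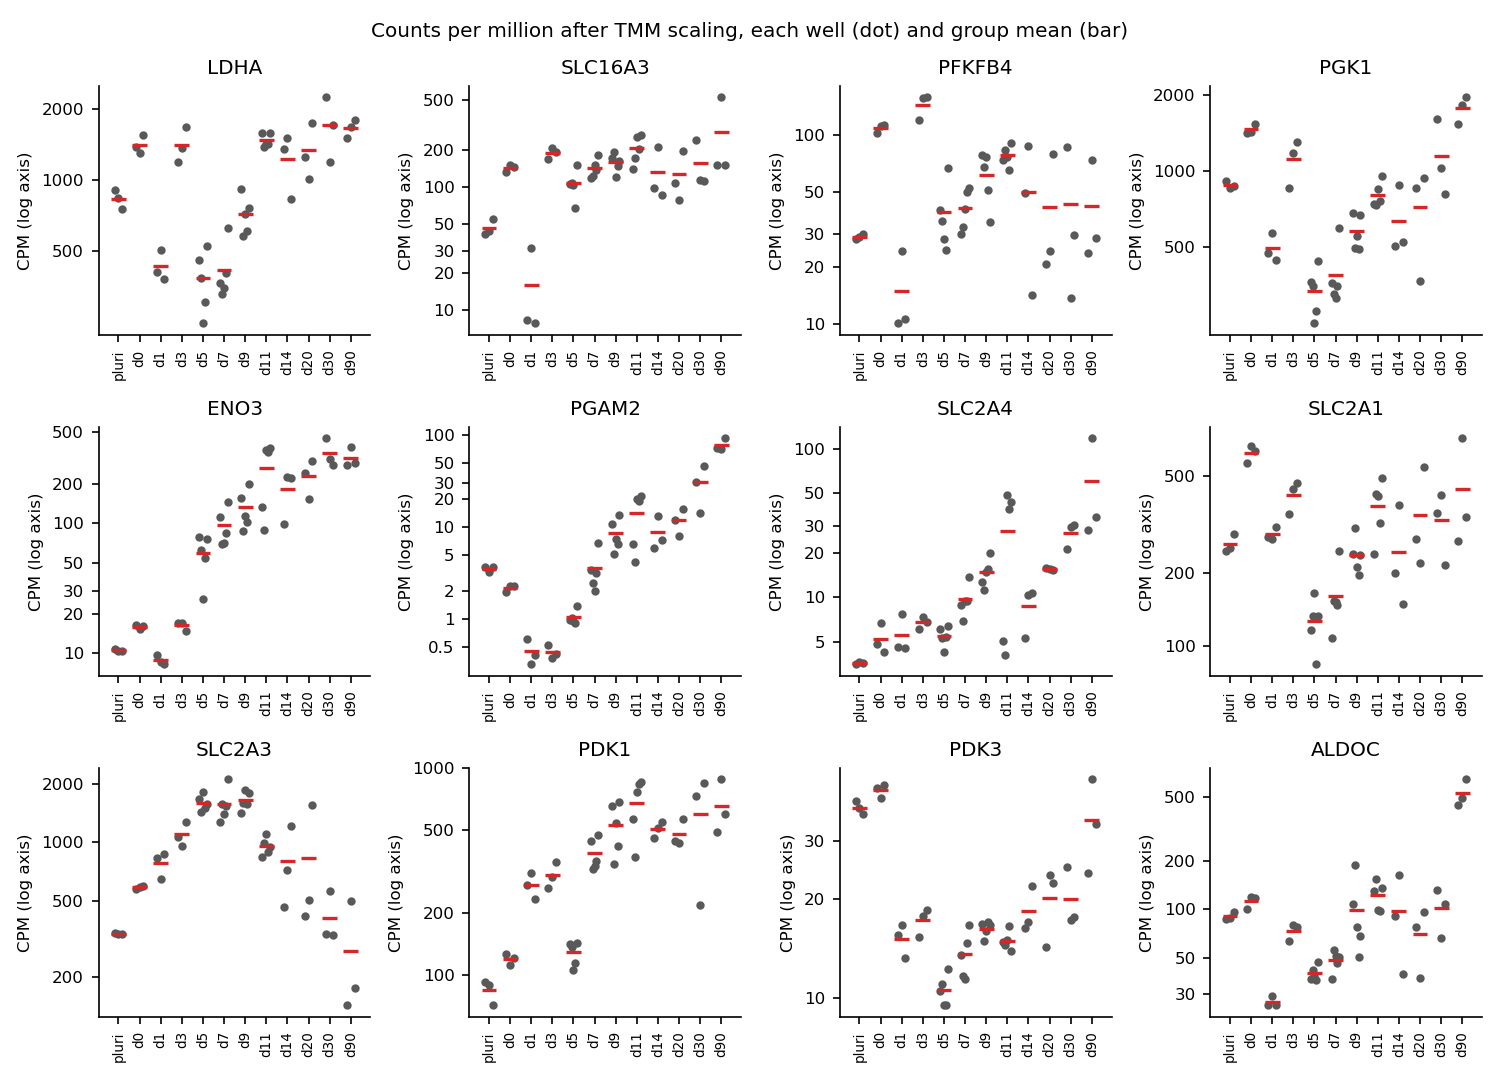
Levels in CPM after TMM scaling (log axes) of 12 of the genes over the 12 groups, with 1 dot per well and a bar at the group mean. The upper row shows LDHA, SLC16A3, PFKFB4 and PGK1, which are low at day 1, high at day 3 and lower at day 5, and the middle row shows ENO3, PGAM2 and SLC2A4 with their late high levels.

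Hypoxia-responsive genes outside glycolysis showed the same signs on these days. Of 8 such genes, 5 were called higher and 0 lower at day 0 against pluripotent cells, 0 higher and 6 lower at day 1 against day 0, and 7 higher and 0 lower at day 3 against day 1. Their summed level was 313 to 357 CPM in pluripotent wells, 643 to 669 at day 0, 251 to 366 at day 1 and 806 to 1209.6 at day 3. No pair of neighbours in this sequence overlapped. BNIP3, a mitophagy receptor, changed by -1.30 ± 0.31 on the log2 scale at day 1 (adjusted p = 0.00223) and by 1.5 ± 0.31 at day 3 (adjusted p = 3.06e-04). VEGFA, a growth factor for blood vessels, changed by 0.33 at day 1, which did not pass, and by 1.80 ± 0.34 at day 3 (adjusted p = 7.86e-05). BNIP3 and VEGFA were picked as examples after their values were seen. The part of oxygen in these changes was not tested.

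The promoters of the 32 genes were searched for ACGTG, the core letters of the hypoxia response element, on either strand. RefSeq windows from 250 bases before to 50 after a gene's start (assembly GRCh38.p14) held these letters in 7518 of 35116 cases (21.4%). Among the windows of the 32 genes they were in 20 of 58 (34.5%). Counted by gene, 16 of the 28 genes with a window had them in at least 1 window (57.1%), against 6790 of 27305 symbols (24.9%), and a gene with several windows has more chances. SLC2A3, SLC2A4, SLC16A1 and PFKFB2 had no window. Printed here are 4 windows of genes with large changes at days 1 and 3, read 5′ to 3′ on the gene's strand with the letters ACGTG or their reverse complement CACGT in capitals. Where both overlap as CACGTG, both strands hold the letters. All 4 printed windows hold the letters, so they do not stand for the windows of the 32 genes as a whole.
LDHA promoter, chr11:18394313-18394612, plus strand: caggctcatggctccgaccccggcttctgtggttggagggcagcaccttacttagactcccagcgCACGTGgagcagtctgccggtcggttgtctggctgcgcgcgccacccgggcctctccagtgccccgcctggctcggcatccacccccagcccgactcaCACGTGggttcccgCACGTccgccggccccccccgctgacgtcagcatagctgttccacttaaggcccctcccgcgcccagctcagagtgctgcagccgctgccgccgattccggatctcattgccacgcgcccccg
PGK1 promoter, chrX:78103998-78104297, plus strand: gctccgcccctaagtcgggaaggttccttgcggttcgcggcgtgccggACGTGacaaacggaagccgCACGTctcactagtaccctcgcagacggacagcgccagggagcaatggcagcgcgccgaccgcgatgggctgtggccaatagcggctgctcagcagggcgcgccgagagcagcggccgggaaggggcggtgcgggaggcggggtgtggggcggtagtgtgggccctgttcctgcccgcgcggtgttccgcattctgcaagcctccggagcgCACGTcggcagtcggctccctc
SLC16A3 promoter, chr17:82228792-82229091, plus strand: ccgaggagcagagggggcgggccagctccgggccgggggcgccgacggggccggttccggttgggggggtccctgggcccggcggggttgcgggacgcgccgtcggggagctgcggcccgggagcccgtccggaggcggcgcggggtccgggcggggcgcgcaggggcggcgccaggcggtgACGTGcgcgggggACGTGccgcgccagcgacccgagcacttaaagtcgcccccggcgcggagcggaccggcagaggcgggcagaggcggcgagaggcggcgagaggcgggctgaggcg
ALDOC promoter, chr17:28576846-28577145, minus strand: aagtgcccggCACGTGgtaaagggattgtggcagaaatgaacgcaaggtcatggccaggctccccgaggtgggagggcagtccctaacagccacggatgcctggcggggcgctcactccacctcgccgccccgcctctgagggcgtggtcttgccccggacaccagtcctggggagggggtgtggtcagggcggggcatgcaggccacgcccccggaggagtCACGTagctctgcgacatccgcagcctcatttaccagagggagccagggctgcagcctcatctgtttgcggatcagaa

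The printed LDHA window held 5 matches, 4 of them paired as 2 CACGTG, and all lay 73 to 185 bases before the start. The other LDHA window, chr11:18396101-18396400, held none. The PGK1 window, ahead of the phosphoglycerate kinase gene, held 3 matches, and the ALDOC window also held 3, with 1 CACGTG. For SLC16A3, 1 of its 5 windows held letters, 2 matches at 68 and 55 bases before the start. The single PFKFB4 window held none, although PFKFB4 had one of the largest changes at days 1 and 3. A window of PDK1, the gene that rose at day 1, held 2 matches. A match is a description of letters, and binding was not measured.

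Between days 3 and 5, across the addition of IWP2, 13 of the 32 genes fell and 1 rose, against 4.34% called lower and 5.75% called higher (10.1% either way) among all genes. This comparison was added after the levels had been seen and shares the day 3 wells with the previous one. Enzymes made up 10 of the 13: HK2, GPI, ALDOA, TPI1, PGK1, PGAM1, ENO1, ENO2, PKM and LDHA. SLC2A1, PDK1 and PFKFB4 fell with them, and the median log2 change of the 32 was -0.82. HK2, the hexokinase of insulin-responsive tissues, went from 179, 248 and 271 CPM at day 3 to 63.1, 52.7, 48.5, 39.1 and 78.9 CPM at day 5. It fell by 2.04 on the log2 scale (SE 0.31, adjusted p = 6.78e-06). PFKFB4 went from 119, 156 and 158 CPM to 40.1, 35.2, 28.0, 24.7 and 66.6, falling by 1.89 (SE 0.45, adjusted p = 0.00238). LDHA went from 1192, 1357 and 1669.8 CPM to 456, 381, 245, 303 and 524, falling by 1.88 (SE 0.22, adjusted p = 4.59e-08). No day 5 well reached any day 3 well for these 3 genes. Within day 5, replicates 3 and 4 were lowest for most enzymes, LDHA and PGK1 among them.

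The 1 gene that rose between days 3 and 5 was ENO3 (chr17:4948092-4957131, plus strand), the enolase of striated muscle. Its wells read 17.3, 17.1 and 15 CPM at day 3 and 78.2, 62.5, 26.0, 54.6 and 75.5 CPM at day 5, with replicate 3 lowest but above all of day 3. The log2 change was 1.85 ± 0.38 (adjusted p = 5.36e-04). Summed cardiomyocyte markers were 47.1 to 57.5 CPM at day 3 and 340.4 to 706 at day 5. Endoderm and liver markers went from 48.3 to 51.2 CPM to 305 to 1172 and fibroblast and stroma markers from 169 to 276 to 1082 to 3074. The part of these lists in the ENO3 change was not tested. Of the hypoxia-responsive list, 3 of 8 genes were called lower (BNIP3, CA9 and KDM3A) and none higher, and its sum of 589.7 to 779 CPM at day 5 did not return to the day 1 range. The TPI1 call was lost without day 5 replicate 3 or 4 (log2 changes of -1.0 and -0.99) and the ENO2 call without day 3 replicate 3 (-0.98, adjusted p = 0.0693).

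Day 9 against day 0 spans the whole specification phase, from confluent stem cells to cultures with transcripts of several cell types. Called higher were 5 of 5 cardiomyocyte markers, 6 of 6 for endoderm and liver, 5 of 5 for fibroblast and stroma, 3 of 3 for smooth muscle and 3 of 4 endothelial ones, while 4 of 4 pluripotency markers and 1 of 3 neural ones were called lower. Their part in the changes of the 32 genes was not tested. Of the 32 genes 8 rose and 6 fell, against 17.1% called higher and 14.6% called lower (31.7% either way) among all genes, shares close to those of the 32. The rises were in ENO3, PGAM2, PFKP, SLC2A3, SLC2A4, PDK1, PDK2 and PDK4, among them the muscle forms ENO3, PGAM2 and SLC2A4. The falls were in PGK1, PGAM1, PKM, SLC2A1, PDK3 and PFKFB2. Of the 19 enzymes 3 rose, 3 fell and 8 others passed the adjusted p with a smaller change. On TPM rather than scaled counts, where the median of all genes shifted by -0.30 on the log2 scale, the split was 4 higher and 14 lower. With TPM rescaled to protein-coding genes alone it was 7 higher and 5 lower. Both of these fits tested 30 of the 32 genes. Of all genes called, 54.1% were higher on scaled counts, 33.1% on TPM and 56.4% on protein-coding TPM. No called gene of the 32 changed sign. Without day 9 replicate 2, the well with high endoderm and liver markers, the split on scaled counts was again 8 higher and 6 lower.

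Among the enzymes ENO3 had the largest rise, from 16.5, 15.4 and 16.3 CPM at day 0 to 158, 87.6, 114, 103 and 201 CPM in day 9 replicates 1, 2, 3, 4 and 10. Its log2 change was 3.04 ± 0.41 (adjusted p = 9.48e-08), and its lowest day 9 well, replicate 2, was still several times any day 0 well. Replicate 2 was also the lowest for PGAM2 and PDK1, and replicate 10 the highest for ENO3, PGAM2, PDK1 and SLC2A4. PGAM1, the widespread phosphoglycerate mutase, went from 1369.6, 1396 and 1418 CPM to 590.3, 452, 455, 473 and 636 CPM and fell by 1.42 on the log2 scale (SE 0.27, adjusted p = 3.30e-05). PGAM2 (chr7:44062727-44065587, minus strand), its muscle counterpart, went from 1.98, 2.30 and 2.31 CPM to 10.8, 5.05, 7.51, 6.48 and 13.6 CPM (log2 change 1.98 ± 0.44, adjusted p = 2.72e-04). PFKP, the platelet-type phosphofructokinase, went from 162, 174 and 182 CPM to 342, 288, 341, 345 and 462 CPM (log2 change 1.04 ± 0.23), and its call was lost without day 9 replicate 10 (0.93). PFKM, the muscle phosphofructokinase, was higher too but below the fold, at a log2 change of 0.70 ± 0.22.

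Among glucose transporters SLC2A1 fell while SLC2A3 and SLC2A4 rose. SLC2A1 had 570.4, 669.9 and 639 CPM at day 0 and 239.5, 305, 210.4, 195 and 236 CPM at day 9, and fell by 1.4 on the log2 scale (SE 0.29, adjusted p = 1.45e-04). SLC2A3 (chr12:7919230-7936275, minus strand), the high-affinity transporter GLUT3, had 571, 589 and 595 CPM and 1416, 1591, 1874, 1587 and 1799.7 CPM, a log2 change of 1.5 ± 0.33 (adjusted p = 2.77e-04). No wells overlapped in either case. SLC2A4 (chr17:7281667-7288257, plus strand), the insulin-responsive GLUT4, rose from 4.83, 6.69 and 4.32 CPM to 12.6, 11.2, 14.7, 15.6 and 19.7 CPM (log2 change 1.48 ± 0.50, adjusted p = 0.0129). Its call was lost without day 0 replicate 3 (1.38, adjusted p = 0.0572). In TPM, which compare genes within a library, SLC2A3 took 27.9% ± 1.6 of the 3 transporters at day 0, 85.0% ± 2.83 at day 5 and 75.0% ± 4.38 at day 9. SLC2A4 took 0.349% ± 0.0561 at day 0 and 0.829% ± 0.156 at day 9, the smallest share in both groups.

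Of the 4 pyruvate dehydrogenase kinases 3 rose and 1 fell. PDK1 had 127, 112 and 121 CPM at day 0 and 658, 344, 540.4, 422 and 688 CPM at day 9, a log2 change of 2.15 ± 0.30 (adjusted p = 1.87e-07). PDK3 (chrX:24465221-24541862, plus strand) had 43.4, 40.5 and 44.3 CPM and 16.7, 14.9, 16, 17.0 and 16.6 CPM, and fell by 1.39 on the log2 scale (SE 0.16, adjusted p = 3.61e-09). Within the family's TPM, PDK1 went from 52.6% ± 0.876 to 84.1% ± 3.11 and PDK3 from 35.2% ± 0.854 to 5.11% ± 1.09. PDK4, the kinase of fasting and fatty acid oxidation in heart, had 0.436, 0.200 and 0.207 CPM at day 0 and 2.05, 2.05, 3.89, 3.77 and 2.14 CPM at day 9 (log2 change 3.28 ± 0.62, adjusted p = 3.40e-05). Despite that rise it stayed scarce, taking 0.489% of the family's TPM at day 9, and its highest group mean was 3.61 ± 2.67 CPM at day 11 (n = 5). In 11 of 44 libraries PDK4 had 3 counts or fewer.

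None of the 4 genes of lactate formation and transport was called between days 0 and 9. Neither LDHA (1371, 1295 and 1540.4 CPM at day 0, 912, 574, 713, 608 and 755 at day 9, log2 change -0.98 ± 0.22) nor LDHB (log2 change -0.72 ± 0.18) was called. SLC16A1, the widespread transporter MCT1, had 760.4, 739 and 712 CPM at day 0 and 396, 420.3, 406, 335 and 452 CPM at day 9 (log2 change -0.87 ± 0.23), below the fold though no wells overlapped. For SLC16A3 the values were 132, 151 and 143 CPM and 171, 190.1, 120.3, 148 and 161 CPM, with overlapping wells and a log2 change of 0.16 ± 0.38.

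**Figure D4:**
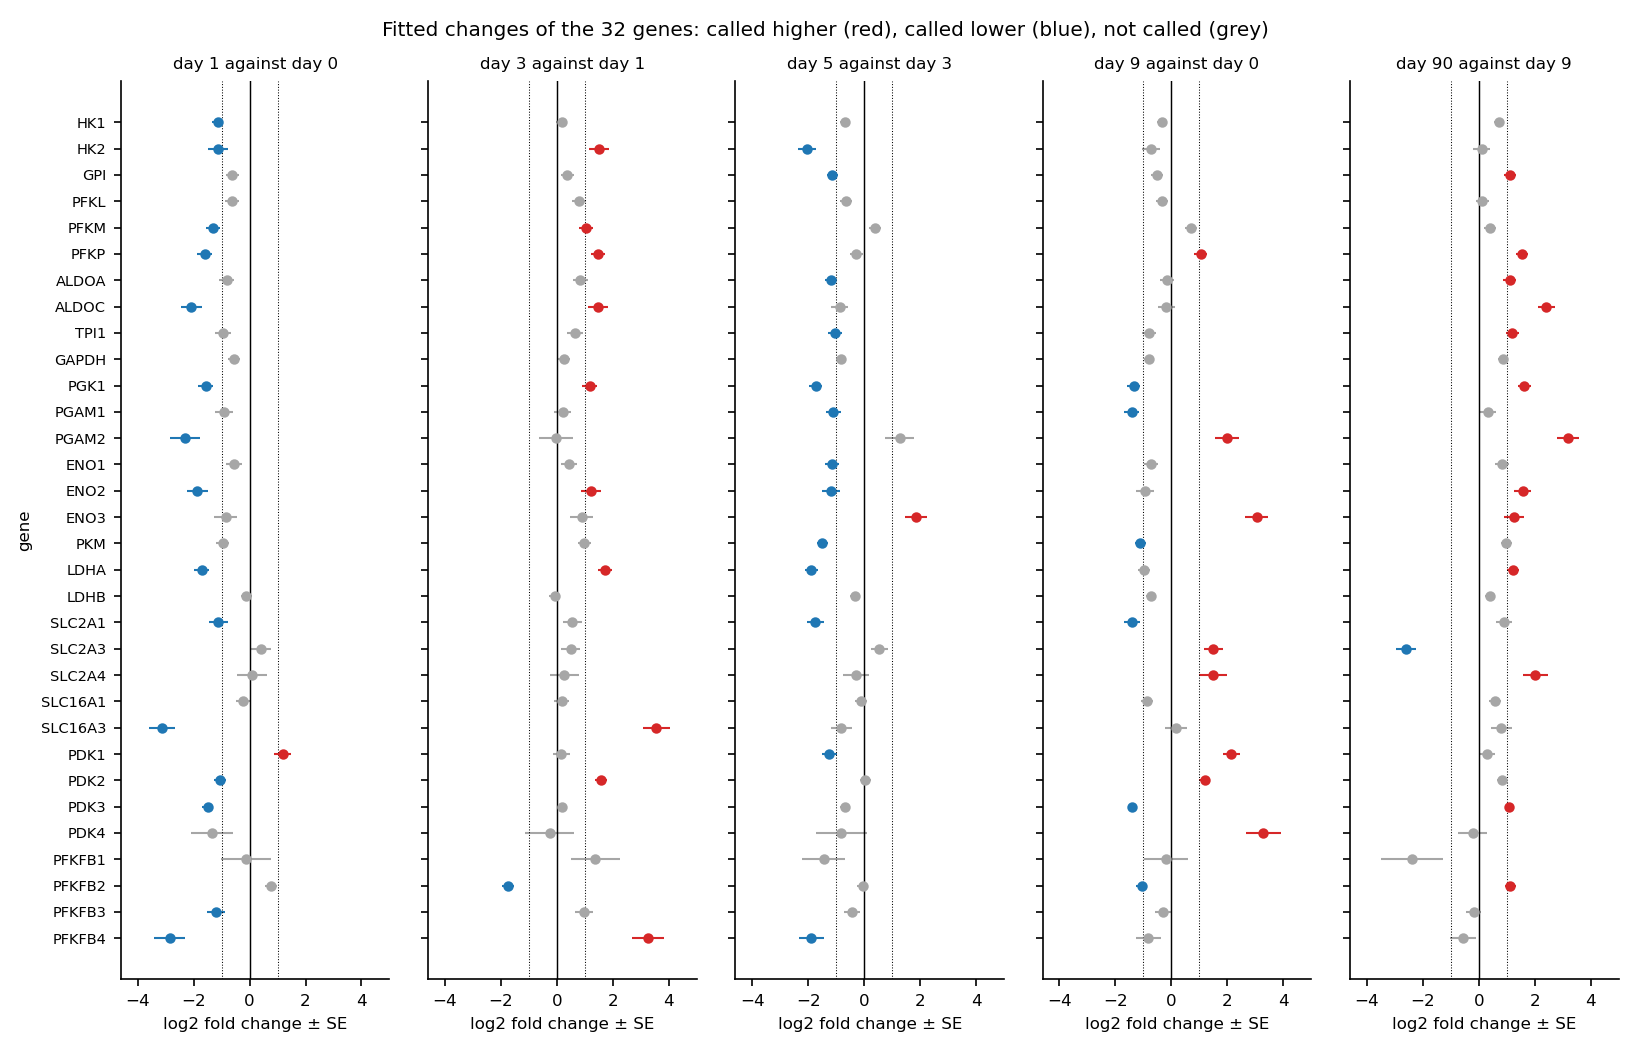
Fitted log2 fold changes (points) with standard errors (bars) of the 32 genes in 5 comparisons, red where called higher, blue where called lower and grey where not called, with dotted lines at log2 changes of -1 and 1. Most points lie left of 0 at day 1 against day 0 and at day 5 against day 3, and right of 0 at day 3 against day 1 and at day 90 against day 9.

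Day 11 against day 9 spans the change to the complete supplement, which holds insulin. LDHA was the only 1 of the 32 genes called, and it was higher, against 0.396% called higher and 1.24% called lower (1.63% either way) among all genes. Its wells read 912, 574, 713, 608 and 755 CPM at day 9 and 1572, 1374, 1416, 1413 and 1583 CPM at day 11, with no overlap (log2 change 1.05 ± 0.20, adjusted p = 0.0016). The call was lost without day 9 replicate 2 or 4, where the log2 change was 0.98 and 0.99, just under the threshold. In LDHA the day 11 wells with low cardiomyocyte sums, replicates 1 and 2, were close to the other 3, replicate 1 among the highest and replicate 2 the lowest.

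Most of the 32 genes were low in the same 2 wells of day 11 as the cardiomyocyte markers. For 19 of the 32 both wells were below replicates 5, 6 and 7, and for 3 both were above. That share was not computed over all genes. SLC2A4, ENO3 and PGAM2 were among the 19 and are given as examples. In replicates 1, 2, 5, 6 and 7, SLC2A4 read 5.10, 4.11, 48.6, 39.3 and 43.4 CPM. ENO3 read 134, 88.6, 366, 350.4 and 382 CPM and PGAM2 read 6.53, 4.20, 20.2, 19.1 and 22.0 CPM in the same order. For SLC2A4 replicates 1 and 2 were below every day 9 well, for ENO3 both were within the day 9 range, and for PGAM2 replicate 1 was within it and replicate 2 below, while replicates 5, 6 and 7 were above every day 9 well for all 3 genes. Without replicates 1 and 2, 4 of the 32 genes were called higher and none lower, against 240 called higher and 622 called lower among 22867 genes tested. They were LDHA (1.05 ± 0.22, adjusted p = 0.00296), ENO3 (1.47 ± 0.27, adjusted p = 8.22e-04), PGAM2 (1.24 ± 0.31, adjusted p = 0.0112) and SLC2A4 (1.57 ± 0.28, adjusted p = 5.45e-04). That fit was added after the data were seen, and leaving wells out by their marker sums favours genes that go with those markers.

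At day 90, after long culture, glycolytic transcripts were higher than at day 9 on scaled counts. At day 90 against day 9, 13 of the 32 genes rose and 1 fell, against 11.9% called higher and 12% called lower (23.9% either way) among all genes. The median log2 change of the 32 was 0.85 against -0.02 over all genes tested. Of the 19 enzymes 10 rose, all 19 had a positive log2 change, and the 10 reach from the isomerase GPI to LDHA (GPI, PFKP, ALDOA, ALDOC, TPI1, PGK1, PGAM2, ENO2, ENO3 and LDHA). SLC2A4, PDK3 and PFKFB2 rose too, and SLC2A3 was the 1 that fell. On TPM, where the median of all genes shifted by -0.48, only 3 of the 30 genes tested were called higher and 1 lower. On protein-coding TPM, shifted by -0.27, 8 of 30 were higher and 1 lower. Of all genes called, 49.9% were higher on scaled counts, 17.1% on TPM and 35.5% on protein-coding TPM. No called gene of the 32 changed sign, and the count moved with the scaling. Of the cell type markers, 6 of 6 for endoderm and liver (summing to 747 to 7652 CPM at day 9 and 10.4 to 212 at day 90) and 4 of 4 endothelial ones were called lower at day 90. Cardiomyocyte markers split into 4 higher and 1 lower, 2 of 5 fibroblast and stroma markers and 1 of 3 for smooth muscle were called higher, and 1 of 4 for pluripotency was called lower. The part of these lists in the rises of the 32 genes was not tested. Without day 90 replicate 4 the split was 9 higher and 1 lower, and without day 9 replicate 2 it was 14 higher and 1 lower.

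PGAM2 had the largest rise of the 32, from 10.8, 5.05, 7.51, 6.48 and 13.6 CPM at day 9 to 72.3, 70.8 and 92.6 CPM in day 90 replicates 2, 4 and 5. The log2 change was 3.18 ± 0.39 (adjusted p = 2.38e-08), a 9.05-fold difference. ALDOC had 108, 189, 77.2, 50.4 and 68.7 CPM at day 9, replicate 2 being highest, and 443, 490.0 and 640.3 CPM at day 90 (log2 change 2.41 ± 0.31, adjusted p = 5.44e-08). PGK1 went from 682, 495, 552, 489.7 and 665 CPM to 1543, 1833 and 1963 CPM (log2 change 1.63 ± 0.24, adjusted p = 6.32e-07). All day 90 wells were above all day 9 wells for these 3 enzymes. SLC2A3 went the other way, from 1416, 1591, 1874, 1587 and 1799.7 CPM to 143, 498 and 177 CPM, and fell by 2.60 on the log2 scale (SE 0.35, adjusted p = 1.79e-07). Its share of the 3 transporters' TPM was 20.4% ± 2.5 at day 90, against 74.8% ± 3.53 for SLC2A1 and 4.83% ± 1.03 for SLC2A4.

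Day 90 replicate 4 set several values by itself. SLC2A4 read 28.2, 117 and 35 CPM, PFKFB2 19.5, 41.7 and 17.1 CPM and SLC16A3 151, 531 and 149.9 CPM in replicates 2, 4 and 5. Without replicate 4 the calls for SLC2A4 (1.10, adjusted p = 0.0636), GPI (0.90), PDK3 (0.84) and PFKFB2 (0.63) were lost. The same well had 2344 CPM of the hypoxia-responsive list, against 1085 and 1202 in replicates 2 and 5. Of that list 4 of 8 genes were called higher at day 90 and none lower. The part of this well's marker and hypoxia-responsive levels in these values was not tested.

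Isoform balance was measured within each well as the log2 ratio of TPM of a pair of genes, which needs no scaling between libraries. Differences were tested by two-sided exact permutation of the wells (3 against 5 wells, 56 splits, smallest possible p 0.0179), with adjustment over 16 tests of 8 pairs. Both comparisons use the same 5 day 9 wells. Enolase and phosphoglycerate mutase shifted towards the muscle forms. ENO3/ENO1 was -6.70, -6.85 and -6.90 at day 0 and -3.25, -3.76, -3.40, -3.34 and -2.75 at day 9, a difference of 3.51 (exact permutation p = 0.0179, adjusted 0.0357). At day 90 it was -2.92, -2.67 and -3.13, a further difference of 0.40 that did not pass (exact permutation p = 0.161, adjusted 0.198). PGAM2/PGAM1 was -8.07, -7.89 and -7.91 at day 0, -4.47, -5.16, -4.64, -4.91 and -4.25 at day 9 and -1.92, -1.79 and -1.67 at day 90. Its differences were 3.28 and 2.89 (adjusted exact permutation p = 0.0357 for each). Even so the widespread forms kept the larger share. ENO3 was 0.851% ± 0.0613 of enolase TPM at day 0, 9.19% ± 2.20 at day 9, then 17.6% ± 3.26 at day 30 and finally 11.5% ± 1.52 on day 90, and PGAM2 0.380% ± 0.0274, 3.76% ± 0.891, 12.2% ± 7.12 and 22.4% ± 1.54 of its family.

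For PFKM/PFKP, HK2/HK1 and LDHB/LDHA, where the first gene is the form textbooks give to muscle or heart, the differences that passed went towards the second gene. PFKM/PFKP was -0.04, -0.04 and -0.15 at day 0, -0.22, -0.34, -0.61, -0.65 and -0.55 at day 9 and -1.24, -1.79 and -1.38 at day 90. The first difference, -0.39, did not pass (adjusted exact permutation p = 0.0519), and the second, -1.0, did (adjusted 0.0357). PFKP made up 33.5% ± 0.615 of phosphofructokinase TPM at day 0 and 65.4% ± 4.72 at day 90. HK2/HK1 was -1.58 ± 0.05 at day 0 (n = 3), -2.01 ± 0.24 at day 9 (n = 5) and -2.81 ± 0.68 at day 90 (n = 3), where replicates 2, 4 and 5 read -3.27, -2.03 and -3.15. Its differences were -0.44 (adjusted exact permutation p = 0.0357) and -0.80 (adjusted 0.0519). LDHB/LDHA was -0.06, 0.05 and -0.24 at day 0, -0.16, 0.37, 0.06, 0.15 and 0.43 at day 9 and -0.55, -0.69 and -0.64 at day 90. Its first difference, 0.25 towards LDHB, did not pass (adjusted exact permutation p = 0.198), and the second, -0.80, did (adjusted 0.0357). LDHA thus held 47.1% ± 4.16 of the pair's TPM at day 9 and 60.7% ± 1.23 at day 90, where LDHB is the form known from adult heart.

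SLC2A4/SLC2A1 differed by 2.78 between days 0 and 9 (adjusted exact permutation p = 0.0357) and by 0.86 between days 9 and 90 (adjusted 0.0519). SLC16A1/SLC16A3 was 1.59, 1.41 and 1.29 at day 0 and 0.25, 0.17, 0.65, 0.36 and 0.58 at day 9, a difference of -1.03 towards the exporter SLC16A3 (adjusted exact permutation p = 0.0357). Between days 9 and 90 this ratio differed by -0.09 (adjusted exact permutation p = 0.612). PDK4/PDK1 is not read as a balance, since the 0.1 TPM added to each gene exceeds PDK4's own mean TPM at day 0. Without that addition PDK4 took 0.149% of the kinases' TPM at day 0, 0.489% at day 9 and 0.452% at day 90. PDK1 was the largest kinase transcript at day 90 too, at 76.9% ± 3.63 of the family's TPM.

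**Figure D5:**
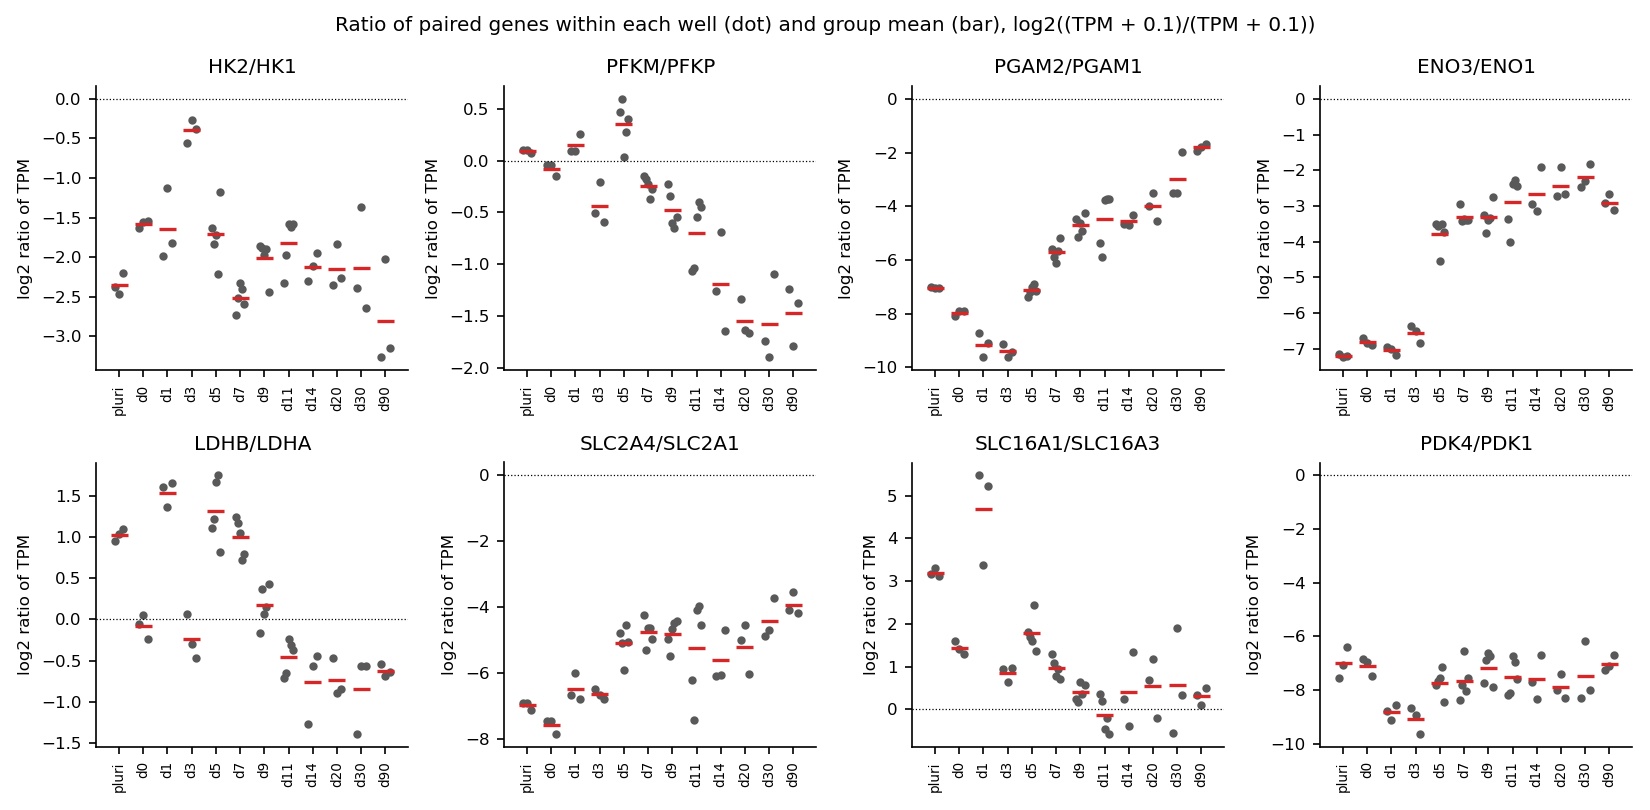
Log2 ratio of TPM (with 0.1 added to each) for 8 pairs of genes in each well (dots), with group means (bars), over the 12 groups; a dotted line marks equal TPM. ENO3/ENO1 is higher from day 5 on and PGAM2/PGAM1 from day 7 on, both staying below 0, PFKM/PFKP is below 0 in every group after day 5, and SLC16A1/SLC16A3 is highest at day 1.

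Days 7, 14, 20 and 30 entered no comparison and are described by their levels (5 wells at day 7, 3 at the others). PFKP had its lowest group mean at day 1 and its highest at day 90, going from 56.7 ± 3.18 CPM at day 1 to 248 ± 44.8 at day 7, 386 ± 106 on day 14, 559 ± 137 on day 20, then 815 ± 221 on day 30 and finally 1035 ± 415 on day 90. SLC2A3 ran the opposite course after day 9, with 1583 ± 324 CPM at day 7, 799.9 ± 384 on day 14, 831 ± 641 on day 20 and then 408 ± 129.9 at day 30. ENO3 was at 96.2 ± 32.2 CPM at day 7, 183 ± 72.9 on day 14, 233 ± 73.8 on day 20 and then 347 ± 90.2 at day 30, and the ranges of neighbouring days overlapped from day 7 to day 90. For SLC2A4 the means were 8.77 ± 2.99 CPM at day 14, 15.5 ± 0.241 at day 20 and 27.1 ± 5.09 at day 30, below the day 11 replicates 5, 6 and 7. Endoderm and liver markers summed to 4335 to 5555 CPM at day 14, 1302 to 5504 at day 20 and 24.5 to 370 at day 30. Cardiomyocyte markers summed to 7693 to 11027, 9819 to 14659 and 7363 to 12136 CPM on these days. The part of these lists in the levels given here was not tested. GAPDH, the dehydrogenase often used as a reference gene, ranged between group means of 2360.3 ± 249 CPM at day 5 and 5609 ± 117 in pluripotent cells. PFKL, the liver phosphofructokinase, lay between group means of 117 ± 55.3 CPM at day 14 and 218 ± 13.2 at day 3. PFKFB2 was highest at day 1, at 42.0 ± 0.724 CPM (n = 3), and fell at day 3 to 12.5 ± 0.323 (n = 3).

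Other genes of glucose and pyruvate use showed a few calls of their own, to be read against 17.1% of all genes called higher and 14.6% lower by day 9, and 11.9% and 12% from day 9 to day 90. Of 11 genes for pyruvate entry into mitochondria and pyruvate dehydrogenase, 2 rose and none fell at day 9 against day 0, and 1 rose and none fell at day 90 against day 9. These were the 2 subunits of the mitochondrial pyruvate carrier. MPC1 had 5.05 ± 0.781 CPM at day 0, 13.7 ± 3.36 at day 9 and 67.0 ± 3.07 at day 90, log2 changes of 1.43 ± 0.22 and 2.29 ± 0.20. MPC2 rose between days 0 and 9 (log2 change 1.56 ± 0.22, adjusted p = 2.30e-07). Pyruvate dehydrogenase subunits themselves were not called in either comparison. Among 10 other glucose and lactate transporters and chaperones, 2 rose and 2 fell by day 9, and 1 rose from day 9 to day 90. SLC16A7, the monocarboxylate transporter MCT2, rose both times, by 1.42 ± 0.29 and 3.06 ± 0.26 on the log2 scale, and EMB, a chaperone of such transporters, fell by day 9 (log2 change -1.83 ± 0.19).

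Among 13 other glycolytic enzymes and tissue forms, 11 were tested, of which 4 fell by day 9 and 1 rose and none fell from day 9 to day 90. LDHD, a dehydrogenase of the D form of lactate, was the gene that rose from day 9 to day 90, to 12 ± 5.08 CPM. Of 6 gluconeogenic genes 4 were tested and 1 fell by day 9, G6PC3, which encodes a glucose phosphatase (log2 change -1.03 ± 0.21). None of the 4 was called between days 9 and 90. Of 15 regulators, 5 rose and 2 fell by day 9, against 17.1% and 14.6% of all genes. From day 9 to day 90, 5 rose and 2 fell, against 11.9% and 12% of all genes. PPARGC1A, a coactivator of mitochondrial genes, went from 3.24 ± 0.243 CPM at day 0 to 38.0 ± 10.3 at day 9 (log2 change 3.55 ± 0.44), and MYC, a factor known to drive glycolytic genes, fell in both comparisons (log2 changes -1.88 ± 0.47 and -1.33 ± 0.52). EGLN3, an oxygen-sensing hydroxylase, fell by day 9 (-1.54 ± 0.25) and rose from day 9 to day 90 (3.15 ± 0.25). Of the 8 hypoxia-responsive genes, 3 rose and 1 fell by day 9. CA9, a carbonic anhydrase, had the largest rise of that list from day 9 to day 90, to 13.8 ± 10.1 CPM (n = 3).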

How the data were processed

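Gene-level estimated counts and TPM were deposited by the authors, in 2 tables that cover all 44 wells. Reads were handled with cutadapt, STAR 2.5.2b and RSEM 1.2.31 on hg38, per the submitters' processing notes. The strand setting of the counting is not given in the sources used here. RNA integrity numbers are scores per the labels. Of the deposited estimated counts 93.8% were whole numbers, and all were rounded before testing. In both tables RSEM's estimates share reads between near-identical genes, and adding the 105 pseudogenes named after 12 of the genes would add at most 0.577% to any of these 12.

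Counts of all 44 libraries were fitted together, with 1 mean per group, by edgeR 4.0.16 (quasi-likelihood test, filterByExpr, TMM scaling) in R 4.3.3. P-values were adjusted by Benjamini-Hochberg over 22955 genes. A floor of 3 counts equals 0.0896 to 0.432 CPM. Coordinates are those of GENCODE release 29 (hg38). Alternatives used DESeq2 1.42.0, limma 3.58.1 on log2(TPM + 1), log2(TPM + 0.1) and protein-coding TPM, other filters and scalings, lane or replicate number as covariates, and fits without single wells. Per-well values are given for called genes averaging 10 TPM or more in the higher group, at most 3 rises and 3 falls per comparison, and for ratio genes. At most 2 rises and 2 falls were named per other pathway list. Genes with a fitted fold against a group near the floor were not given a fold. SLC2A4, ENO3 and PGAM2 at day 11, PFKFB2 and SLC16A3 at day 90, and the genes described at days 7 to 30 were named after their values were seen. The genes, lists and comparisons were chosen with earlier results of these data known, and day 5 against day 3 and the enzyme sums on TPM were added after levels were seen. On simulated data, 96% of 4-fold and 39% of 2-fold changes were recovered for day 9 against day 0 and 92% and 33% for day 90 against day 9, among 22955 genes. A 2-fold change lies exactly at the log2 threshold of 1, so many such changes are missed at any depth.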

Additional observations from a re-analysis of the deposited data

Results flagged for a closer look

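In day 7 replicate 10, 5 enzymes were far above the other 4 wells of that day. The well had 1151 CPM of ALDOA (others 667 to 759), 934.3 of TPI1 (others 505 to 570) and 3797 of GAPDH (others 2178 to 2513). It also had 593.1 CPM of PGK1 (others 311 to 358) and 2261 of ENO1 (others 1308 to 1508). At day 5, replicate 3 was low for LDHB, at 589 CPM against 718 to 763 in the other 4 wells. In these 6 of 128 gene and group pairs with 5 wells, the gap to the nearest well exceeded Dixon's 95% critical value of 0.71 of the group's range, which chance passes in about 1 of 20 groups. The 5 enzymes share 1 well, so their flags are not independent. Day 7 entered no comparison.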

How the results depend on the processing

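Of the 74 calls for single genes, all kept direction and call with DESeq2, RLE scaling, no filter, only the compared groups, pseudogene counts added or without the 4 shallowest libraries. With lane as a covariate 1 was lost (PFKFB2, day 9 against day 0). On log2(TPM + 1) 25 of 73 were lost, on log2(TPM + 0.1) 23 and on protein-coding TPM 8, and none reversed in any alternative. Without single wells 58 of 74 stayed called in every fit.

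The count for day 0 against pluripotent was 1 on log2(TPM + 1) and log2(TPM + 0.1), 6 on protein-coding TPM and 1 without any single well. For day 1 against day 0 it was 10 on log2(TPM + 1). For day 11 against day 9 it was 2 with RLE scaling, DESeq2 or without shallow libraries, 0 on both TPM scales, 4 without day 11 replicates 1 and 2, and 0 to 3 without single wells. For day 90 against day 9 it was 4 on both TPM scales, 9 on protein-coding TPM and 10 to 17 without single wells. The cause was not tested.

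With 1 TPM added, ratio differences passed for HK2/HK1 (-0.68) and SLC2A4/SLC2A1 (0.66) between days 9 and 90, and for PFKM/PFKP (-0.39) and PDK4/PDK1 (-1.23) between days 0 and 9. On CPM the PDK4/PDK1 differences reversed to 0.84 and -0.46. Without single wells the day 9 against day 0 differences ranged from 3.38 to 3.63 for ENO3/ENO1, 3.17 to 3.39 for PGAM2/PGAM1, 2.65 to 2.95 for SLC2A4/SLC2A1, -0.47 to -0.33 for HK2/HK1, -1.10 to -0.95 for SLC16A1/SLC16A3 and -0.29 to 0.09 for PDK4/PDK1. For day 90 against day 9 they ranged from 2.77 to 3.00 for PGAM2/PGAM1, -1.11 to -0.84 for PFKM/PFKP, -0.88 to -0.73 for LDHB/LDHA, -1.19 to -0.57 for HK2/HK1, 0.28 to 0.53 for ENO3/ENO1, 0.67 to 0.98 for SLC2A4/SLC2A1, -0.19 to 0.02 for SLC16A1/SLC16A3 and -0.02 to 0.30 for PDK4/PDK1. Fewer wells allow fewer splits, so most of these ratios no longer passed. PDK4/PDK1 between days 0 and 9 changed sign without day 0 replicate 1 (0.04) or day 9 replicate 1 (0.05) or 10 (0.088), as did that between days 9 and 90 without day 9 replicate 10 (-0.017). SLC16A1/SLC16A3 between days 9 and 90 changed sign without day 90 replicate 4 (0.017).

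Deviations of wells with the same replicate number had correlations of -0.10 to 0.37, not above 0.1 in every pair of any comparison with 3 pairs. The highest, 0.37, was that of replicate 2 at day 11 against day 9. Replicate 2 had the lowest cardiomyocyte sum and the highest endoderm and liver sum of its group at days 7, 9, 11 and 14. This did not hold at days 5 and 20. Whether the numbers mark shared differentiations was not settled, and the main fit did not use them. With the replicate number as a block, 4, 16, 11, 14, 15, 1 and 16 genes were called in the 7 comparisons and 31 over the 12 groups. In same-numbered wells (replicate block) PDK4/PDK1 differed by 0.0029 and -0.36.

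Depth limits PDK4 and PFKFB1, at 3 counts or fewer in 11 and 19 libraries. In simulation 2-fold changes were often missed, but they lie exactly at the threshold for a call, so this does not measure depth.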
